A study of Homo sapiens with 6 samples.

Results

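The genes described here are the long non-coding RNAs NEAT1 and MALAT1 and 5 proteins that gather on NEAT1, namely SFPQ, NONO, PSPC1, RBM14 and TARDBP. They were chosen by family, with their values in the same comparison of these libraries already known, so their rows are given as a description and support nothing by themselves. All 7 were found by symbol among the 27968 genes of the deposited tables, and they hold 23 of the 70006 isoforms. The cells were H23, a line from a human lung adenocarcinoma. HOTAIR-N siRNA libraries (n = 3) came from cells transfected with an siRNA specific for HOTAIR-N, a name the labels do not explain. The title of the series speaks of RNAi against HOTAIR, a long non-coding RNA. Control siRNA libraries (n = 3) came from cells given a control siRNA. Both groups were transfected with RNAiMAX in 3 independent transfections each, and total RNA was taken with TRIZOL 48 hours later. H23 is a single line and the siRNA sequences were not known, so other effects of either siRNA cannot be told apart from those of less HOTAIR.

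Paraspeckles are bodies in the nucleus that are built on NEAT1. The gene makes a short RNA that ends at a poly(A) signal and a long RNA that reads through that signal, and the long RNA is the scaffold of the body. SFPQ, NONO and PSPC1 form the DBHS family of RNA-binding proteins, which pair with each other and coat the long RNA, while RBM14 and TDP-43 (the product of TARDBP) are further components with prion-like domains. MALAT1, encoded next to NEAT1, sits instead in nuclear speckles, the stores of splicing factors. MALAT1 and long NEAT1 have no poly(A) tail: RNase P cuts their 3' ends, which are kept stable by a triple helix.

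The part of NEAT1 where the RNAs diverge is shown first, because the isoform values below turn on it. The stretches come from the long transcript NEAT1-202 of GENCODE release 29 (GRCh38, plus strand, read 5′ to 3′). The first covers bases 3606 to 3755 of the transcript, at chr11:65426403-65426552, around the end of the short RNA. Capitals mark the poly(A) signal AATAAA and the word TGTA, which the polyadenylation factor NUDT21 binds. The second is the last 60 bases of the long RNA, at chr11:65445481-65445540, with the A-rich tract of the triple helix in capitals.
NEAT1 short isoform end: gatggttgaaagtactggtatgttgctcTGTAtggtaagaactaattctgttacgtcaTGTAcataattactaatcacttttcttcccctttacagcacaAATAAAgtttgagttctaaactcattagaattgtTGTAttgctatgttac
NEAT1 long isoform end: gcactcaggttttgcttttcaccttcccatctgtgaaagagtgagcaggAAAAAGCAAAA
The only AATAAA of the first stretch starts at base 3706, and the short isoform NR_028272 is 3735 nt long in the deposited tables. The stretch holds 3 copies of TGTA. The long isoform NR_131012 is 22741 nt long in those tables and contains the whole short isoform, so reads from its shared part cannot be assigned by sequence. RSEM divided them between the isoforms by estimation.

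The libraries held 32715361 to 35329948 expected counts with HOTAIR-N siRNA and 34715341 to 36578681 with control siRNA. HOTAIR was lower in the cells given its siRNA, with 88, 74 and 82 counts, against 169, 148 and 202 with control siRNA (log2 fold change -1.04, SE 0.14, adjusted p = 1.32e-05, edgeR quasi-likelihood test). Of the epithelial markers, KRT8 stood at 1364 CPM (counts scaled to the library total) with HOTAIR-N siRNA and 1268 CPM with control siRNA. KRT19 and EPCAM were low, at 4.8 to 5.65 and 5.66 to 7.99 TPM (a level adjusted for transcript length and scaled to the library). Of the lung markers, the lineage factor NKX2-1 had 1.95, 2.51 and 3.02 TPM with HOTAIR-N siRNA, against 1.19, 1.54 and 1.06 TPM with control siRNA, and the surfactant genes SFTPB and SFTPC had 0 to 3 counts per library. The 9 epithelial and lung markers summed to 2922, 3292 and 3221 TPM with HOTAIR-N siRNA, against 4227, 4424 and 3716 TPM with control siRNA. KRT18 was lower (log2 fold change -0.71, SE 0.06) and CDH1 (1.07, SE 0.06) and NKX2-1 (1.02, SE 0.18) were higher, and the part of such a shift in the values below was not tested. The 7 markers of blood, endothelial and liver cells summed to 8.05, 9.0 and 9.33 TPM with HOTAIR-N siRNA and 9.4, 8.19 and 7.22 TPM with control siRNA, nearly all of it CD68, and CD3E and HBB were at 0. Although the labels name a total RNA kit with ribosomal RNA depletion, RMRP, RPPH1 and SCARNA2, which lack a poly(A) tail, had 0 to 8 counts in a library. This bears on MALAT1 and long NEAT1, which lack one too, and its part in their values was not tested.

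NEAT1 and SFPQ moved in opposite directions by about the same factor. In bulk RNA, fewer cells with a transcript and less of it per cell cannot be told apart. In the whole-table test with edgeR's quasi-likelihood method and Benjamini-Hochberg adjustment, NEAT1, MALAT1 and PSPC1 were higher with HOTAIR-N siRNA, SFPQ and TARDBP were lower, and NONO and RBM14 did not pass the threshold of 0.05. That makes 5 of 7 genes past the threshold, where 57.5% of the 15072 tested genes passed. Of all tested genes, 28.7% were higher and 28.8% were lower. The CPM of the groups did not overlap for 6 of the 7, the exception being RBM14, and did not overlap for 62.9% of all genes. NEAT1 and SFPQ passed with an absolute log2 fold change of at least 1, as did 8.67% of the tested genes. The share of tested genes with a larger absolute log2 fold change was 6.75% for NEAT1, 7.80% for SFPQ, 15.0% for MALAT1, 20.7% for PSPC1 and 46.7% for TARDBP.

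**Figure D1:**
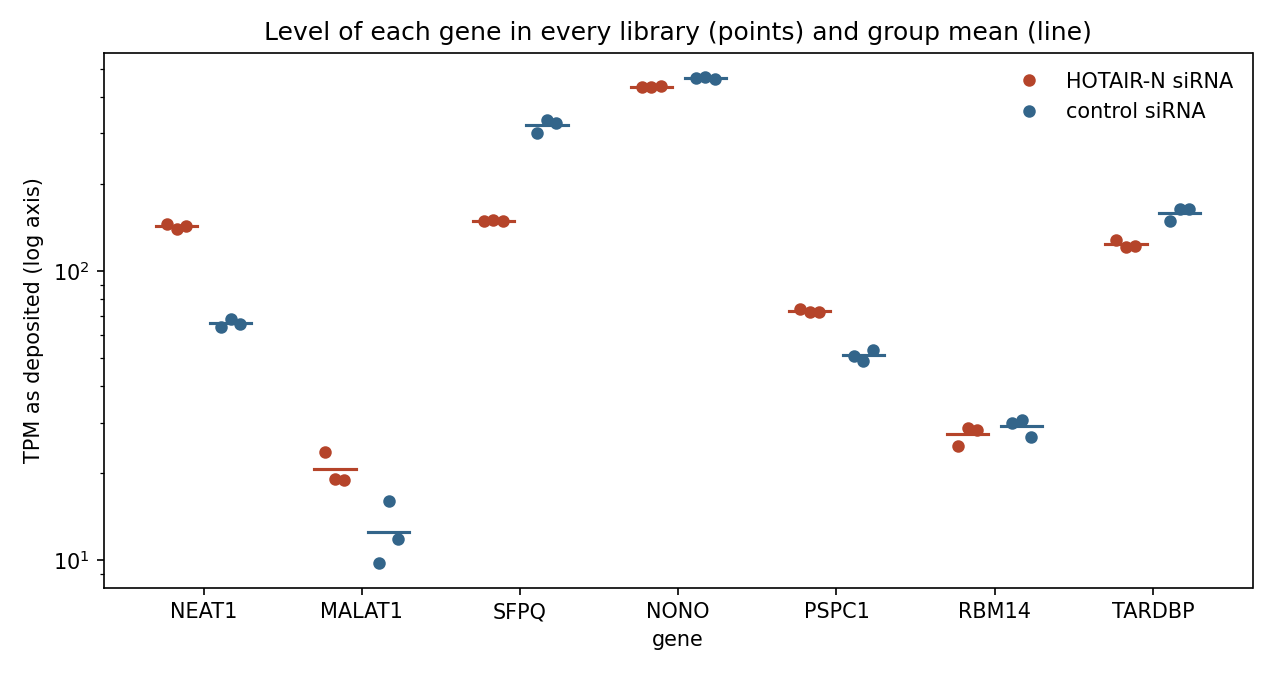
TPM of the 7 genes on a log axis, with each library as a point and each group mean as a line (red, HOTAIR-N siRNA; blue, control siRNA; n = 3 each). NEAT1, MALAT1 and PSPC1 sit higher and SFPQ and TARDBP lower with HOTAIR-N siRNA, while the RBM14 libraries of the groups overlap.

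NEAT1, the scaffold RNA, stood at 146, 139.6 and 144 TPM with HOTAIR-N siRNA, against 64.1, 68.3 and 66.0 TPM with control siRNA. Every library with HOTAIR-N siRNA was above every control library, and the gap was many times the spread in either group. The log2 fold change was 1.11 (SE 0.05, adjusted p = 2.54e-10, edgeR quasi-likelihood test), which is 2.17-fold. By TPM, NEAT1 ranked 1062nd of all genes with HOTAIR-N siRNA and 2553rd with control siRNA.

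The increase was in the short isoform. NR_028272 stood at 145, 139 and 143 TPM with HOTAIR-N siRNA and at 63.6, 67.8 and 65.4 TPM with control siRNA, with a log2 fold change of 1.18 (SE 0.04, adjusted p = 2.14e-04, edgeR quasi-likelihood test). The long isoform, which was singled out after its values were seen, pointed the other way. NR_131012 had 114, 152 and 119 expected counts with HOTAIR-N siRNA, against 220, 186 and 227 with control siRNA. These groups did not overlap, as in 41.8% of all tested isoforms, and the log2 fold change of -0.66 (SE 0.17) did not pass (adjusted p = 0.0511, edgeR quasi-likelihood test). The adjusted p lay between 0.0367 and 0.175 in the 11 alternatives, and 3 of them (RLE scaling, a stricter filter and limma-voom) passed.

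Long NEAT1 was a small part of the NEAT1 RNA captured in all libraries. RMRP, RPPH1 and SCARNA2, which also lack a poly(A) tail, were nearly absent from them. How far its share reflects such capture was not tested. Long NEAT1 held 1.23, 1.66 and 1.21% of the NEAT1 counts with HOTAIR-N siRNA, against 5.004, 4.22 and 4.89% with control siRNA. Adjusted for its length, it made up 0.20, 0.27 and 0.19% of NEAT1 transcripts with HOTAIR-N siRNA and 0.82, 0.69 and 0.81% with control siRNA, by the percent the authors deposited. Set per length, the short isoform stood 519, 376 and 512 times as high in TPM as the long one with HOTAIR-N siRNA, against 120.0, 144 and 123 times with control siRNA. All expected counts of the long isoform, including any from the shared part, were also divided by the length of its unshared stretch. They came to 6.0, 8.0 and 6.25 per kb with HOTAIR-N siRNA, against 11.6, 9.81 and 11.9 per kb with control siRNA. These values are therefore not a density of reads within that stretch. The shift between the isoforms, tested as isoform use within the gene (edgeR's diffSpliceDGE function with Simes p-values), did not pass at an adjusted p of 0.0742. Over the alternatives that value ran between 0.0590 and 0.272, and 4.13% of the 7523 genes with several isoforms passed.

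**Figure D2:**
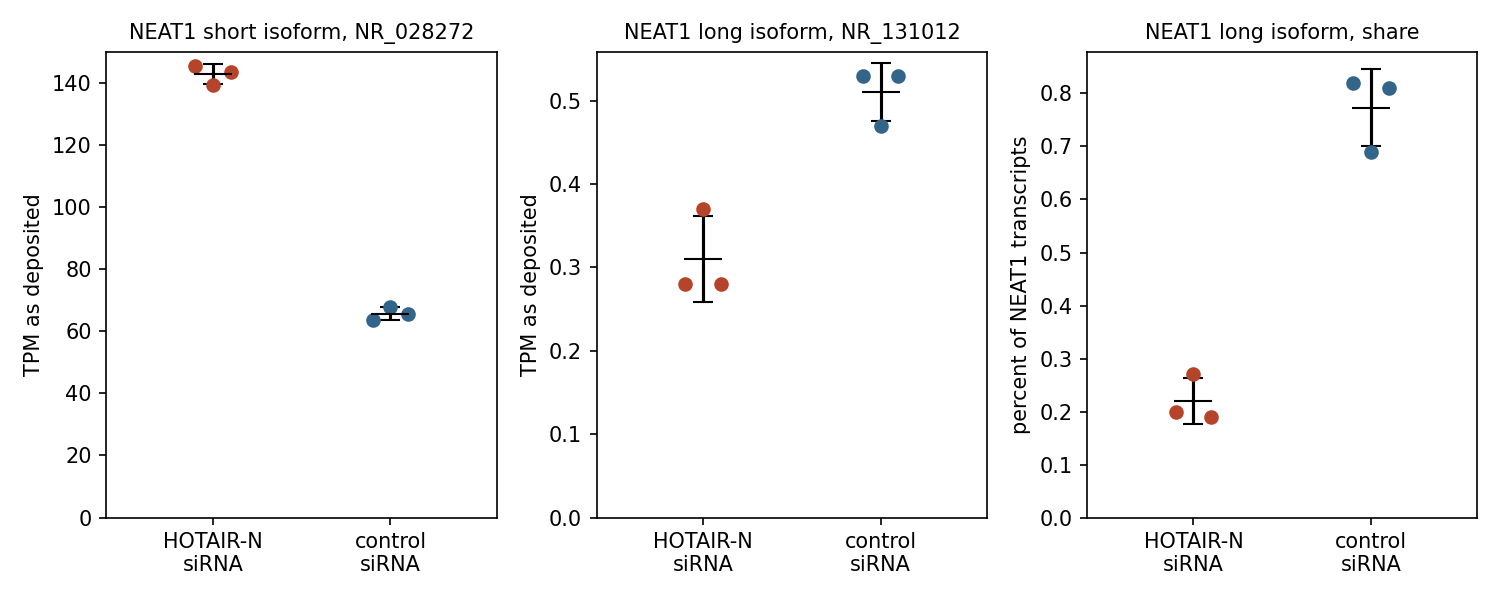
NEAT1 isoforms by library (points), with the group mean and SD (bars; n = 3 each): TPM of the short isoform, TPM of the long isoform, and the percent of NEAT1 transcripts that are long. The short isoform is higher and both measures of the long isoform are lower with HOTAIR-N siRNA, and the vertical scales differ between panels.

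MALAT1, the nuclear speckle RNA, was far less abundant than NEAT1 in these libraries and varied more. It stood at 23.8, 19.2 and 19.0 TPM with HOTAIR-N siRNA, against 9.78, 16.1 and 11.8 TPM with control siRNA. The groups did not overlap, but the lowest library with HOTAIR-N siRNA was close to control replicate 2. The log2 fold change was 0.77 (SE 0.18, adjusted p = 0.0110, edgeR quasi-likelihood test). Without control replicate 3 it was 0.73 and did not pass (adjusted p = 0.0758), and over the 16 alternatives that keep MALAT1 as a gene of its own the adjusted p ran between 9.56e-06 and 0.0758.

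MALAT1 is overlapped by an antisense RNA, TALAM1, and it is not known whether reads were assigned by strand. TALAM1 had 2.76, 4.12 and 5.41 TPM with HOTAIR-N siRNA and 4.15, 2.27 and 4.30 TPM with control siRNA, and the groups overlapped (log2 fold change 0.23, SE 0.38). It took 10.1, 17.3 and 21.7% of the summed counts of the pair with HOTAIR-N siRNA, against 29.2, 12.04 and 26.2% with control siRNA. Libraries with a high TALAM1 share were the ones with low MALAT1 in their group. This is partly built in, because MALAT1 counts are part of the sum that the share is taken of. The summed counts of the pair were steadier, at 3842, 3431 and 3738 with HOTAIR-N siRNA, against 2080, 2630 and 2467 with control siRNA. As a single feature the pair had a log2 fold change of 0.66 (SE 0.08, adjusted p = 4.90e-06, edgeR quasi-likelihood test). This sum was added after the data had been seen.

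The 3 deposited MALAT1 isoforms share nearly all their sequence and could hardly be separated. NR_144568, which made up most of the gene, was higher at 17.1, 16.2 and 16.8 TPM with HOTAIR-N siRNA, against 8.71, 12.3 and 11.2 TPM with control siRNA (log2 fold change 0.70, SE 0.11, adjusted p = 0.0116, edgeR quasi-likelihood test). It missed the threshold in 2 of 11 alternatives, at adjusted p-values of 0.0505 without HOTAIR-N siRNA replicate 3 and 0.0692 with a replicate block. The other isoforms were at 0 in some libraries and carried standard errors of 1.5 (NR_144567) and 2.46 (NR_002819) on the log2 scale. MALAT1 isoform use did not pass (adjusted p = 1.00, diffSpliceDGE).

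The transcripts of the DBHS genes changed their proportions. SFPQ, which also acts in splicing and transcription, stood at 149, 151 and 149 TPM with HOTAIR-N siRNA, against 302, 334 and 326 TPM with control siRNA. Its level with HOTAIR-N siRNA was 48.3% of that with control siRNA, a log2 fold change of -1.05 (SE 0.05, adjusted p = 4.72e-10, edgeR quasi-likelihood test), and every library was below every control library. NONO, a frequent partner of SFPQ, stood at 433, 434 and 439 TPM with HOTAIR-N siRNA and at 466, 469 and 462 TPM with control siRNA. The NONO groups did not overlap, but the log2 fold change of -0.05 (SE 0.05) did not pass the threshold (adjusted p = 0.350, edgeR quasi-likelihood test). PSPC1, the least abundant of the family, was higher at 74.2, 72.6 and 72.1 TPM with HOTAIR-N siRNA, against 50.9, 49.2 and 53.5 TPM with control siRNA. Its log2 fold change was 0.63 (SE 0.06, adjusted p = 7.71e-07, edgeR quasi-likelihood test).

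Summed over SFPQ, NONO and PSPC1, DBHS transcripts came to 658 ± 1.84 TPM with HOTAIR-N siRNA and 838 ± 16.98 TPM with control siRNA (SD, n = 3 each). SFPQ made up 22.7% of that sum with HOTAIR-N siRNA and 38.3% with control siRNA. NONO took 66.2% and PSPC1 11.1% with HOTAIR-N siRNA, against 55.6% and 6.12% with control siRNA. The ratio of SFPQ to NEAT1 in TPM was 1.02, 1.08 and 1.04 with HOTAIR-N siRNA, against 4.70, 4.89 and 4.95 with control siRNA. It therefore differed more than either gene did alone.

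SFPQ fell in its main isoforms together. The coding isoform NM_005066 stood at 97.3, 89.4 and 90.7 TPM with HOTAIR-N siRNA, against 174, 214 and 196 TPM with control siRNA (log2 fold change -1.01, SE 0.07). NR_136702, a shorter form that RefSeq lists as non-coding, stood at 46.5, 57.5 and 54.0 TPM with HOTAIR-N siRNA, against 122, 115 and 125 TPM with control siRNA (log2 fold change -1.14, SE 0.09). Both were lower past the threshold (adjusted p = 0.00107 and 0.00136, edgeR quasi-likelihood test). The minor form NR_136703 did not pass, at a log2 fold change of -0.31 (SE 0.15). SFPQ isoform use did not pass (adjusted p = 1.00, diffSpliceDGE).

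Of the PSPC1 isoforms, 1 was higher past the threshold. NM_001354909 stood at 46.9, 54.6 and 43.2 TPM with HOTAIR-N siRNA, against 19.9, 15.5 and 20.9 TPM with control siRNA (log2 fold change 1.41, SE 0.16, adjusted p = 0.00358, edgeR quasi-likelihood test). Its share of the gene was 63.3, 75.2 and 59.9% with HOTAIR-N siRNA, against 39.1, 31.5 and 39.1% with control siRNA. The non-coding form NR_044998 was lower, at 1.72, 2.55 and 1.68 TPM with HOTAIR-N siRNA and 5.44, 3.73 and 5.89 TPM with control siRNA (log2 fold change -1.29, SE 0.28, adjusted p = 0.0286, edgeR quasi-likelihood test), and it missed the threshold in 5 of the 11 alternatives. NR_003272 and NR_149052, also listed as non-coding, had log2 fold changes of -0.33 (SE 0.11) and -0.47 (SE 0.18) and did not pass. The coding isoform NM_001042414 stood at 9.66, 0.71 and 13.2 TPM with HOTAIR-N siRNA and 7.95, 7.62 and 5.67 TPM with control siRNA. Among the HOTAIR-N siRNA libraries it was lowest where NM_001354909 was highest, and highest where NM_001354909 was lowest. How far RSEM traded shared reads between these isoforms was not tested. PSPC1 isoform use did not pass (adjusted p = 0.113, diffSpliceDGE).

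**Figure D3:**
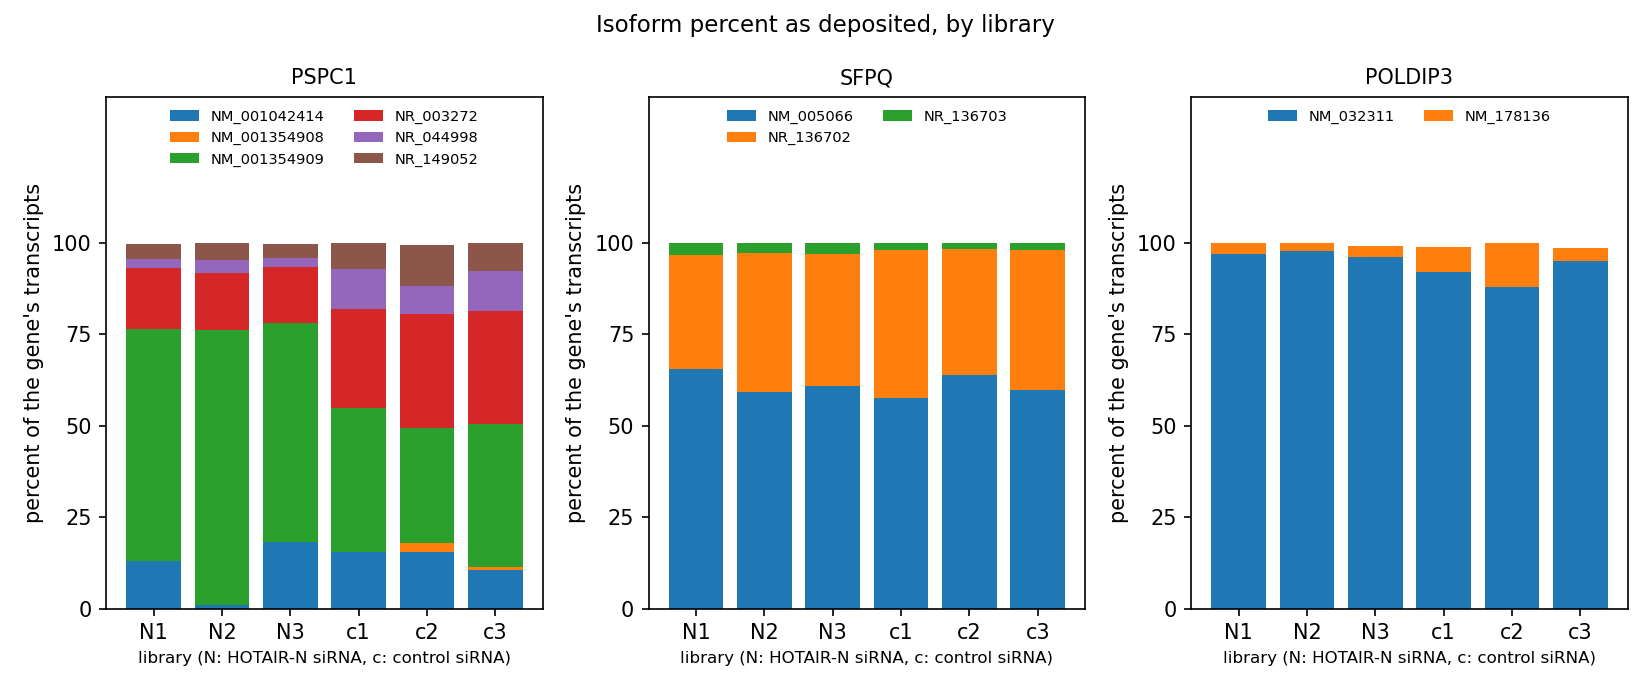
Percent of each gene's transcripts by isoform and library, as deposited, for PSPC1, SFPQ and POLDIP3 (N1 to N3, HOTAIR-N siRNA; c1 to c3, control siRNA); only isoforms with at least 1 TPM in a library are drawn. In PSPC1 the isoform NM_001354909 takes 59.9 to 75.2% with HOTAIR-N siRNA and 31.5 to 39.1% with control siRNA, while the SFPQ shares of the groups overlap for the main isoforms.

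None of the NONO isoforms passed. The main one, NM_007363, had a log2 fold change of 0.02 (SE 0.04), NM_001145408 one of -0.19 (SE 0.10) and NM_001145409 one of -0.37 (SE 0.15). Over the whole family, 19 of the 23 isoforms were tested and 7 passed, 3 higher and 4 lower. Among all 32627 tested isoforms 19.5% passed, 9.39% higher and 10.1% lower.

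RBM14 and TARDBP stand for the other protein components. RBM14 stood at 24.98, 28.7 and 28.2 TPM with HOTAIR-N siRNA and at 29.9, 30.7 and 26.8 TPM with control siRNA, with overlapping groups and a log2 fold change of -0.05 (SE 0.07). The neighbouring RBM4, which shares a readthrough transcript with RBM14, was at 0.19 (SE 0.06), and adding the readthrough counts left RBM14 at -0.05. TARDBP, whose product TDP-43 binds GU-rich RNA and steers splicing and polyadenylation, stood at 129, 122 and 123 TPM with HOTAIR-N siRNA, against 149, 165 and 164 TPM with control siRNA. The groups did not overlap, and the log2 fold change was -0.31 (SE 0.05, adjusted p = 1.47e-04, edgeR quasi-likelihood test). The median absolute log2 fold change of all tested genes was 0.29, so the size of the TARDBP difference was ordinary for these libraries.

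**Figure D4:**
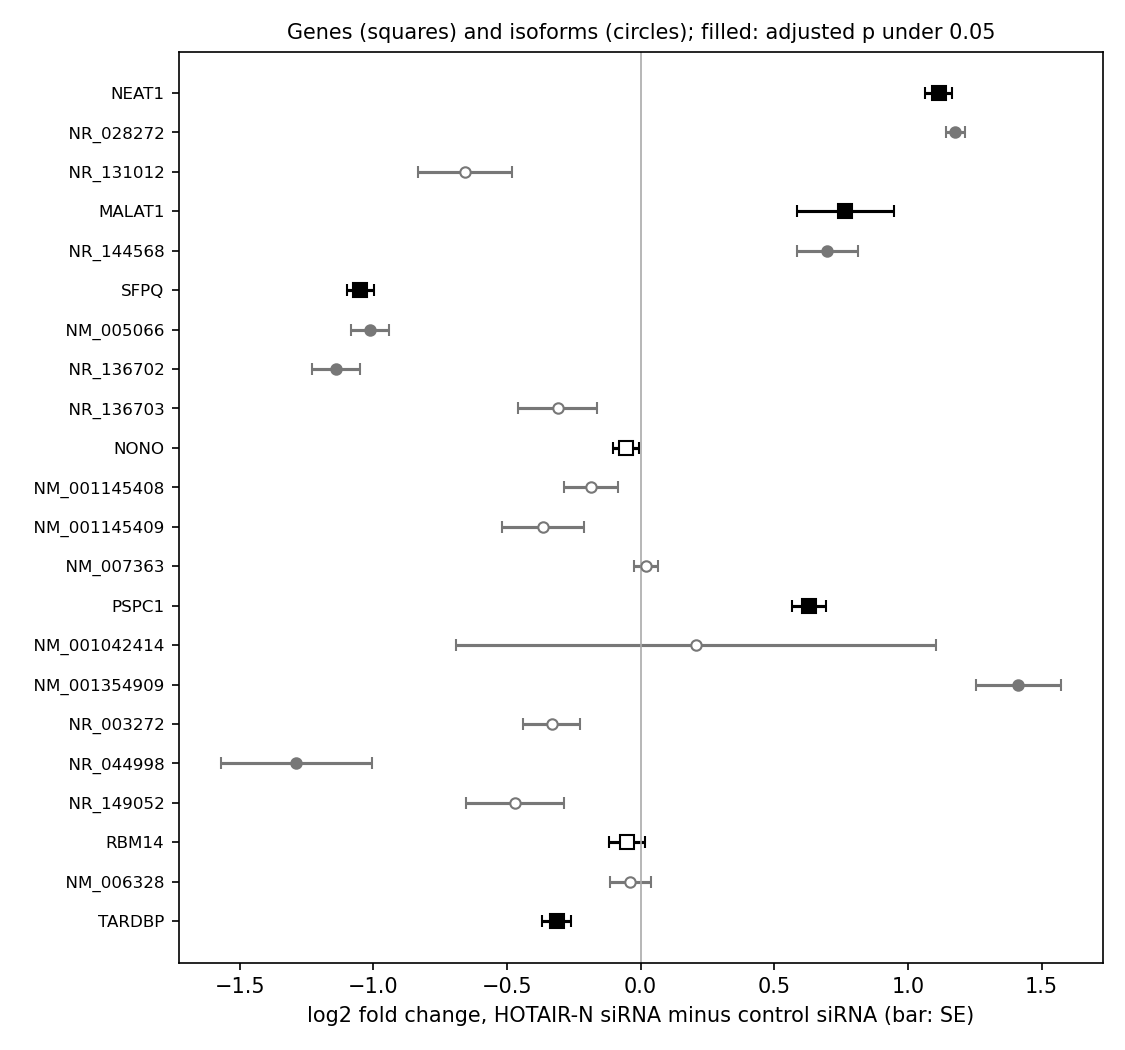
Log2 fold change, HOTAIR-N siRNA minus control siRNA, with its SE, for the 7 genes (squares) and their isoforms (circles); filled symbols have an adjusted p under 0.05. Isoforms with an SE of 1 or more and the single TARDBP isoform are not drawn, and the NEAT1 isoforms lie on opposite sides of 0.

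By level, the order with HOTAIR-N siRNA was NONO, SFPQ, NEAT1, TARDBP, PSPC1, RBM14 and MALAT1, on mean TPM of 435, 149.7, 143, 124, 72.95, 27.3 and 20.7. With control siRNA it was NONO, SFPQ, TARDBP, NEAT1, PSPC1, RBM14 and MALAT1, on mean TPM of 466, 321, 159, 66.1, 51.2, 29.1 and 12.6. NEAT1 and TARDBP thus changed places. No neighbours in either order overlapped in their 3 libraries, though SFPQ and NEAT1 came within a few TPM of each other with HOTAIR-N siRNA.

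The genes whose 6 library values ran closest to those of NEAT1 and MALAT1 were sought by the root mean square difference of log2 CPM, each gene centred on its own mean. The search covered 9868 other genes whose log2 CPM averaged 3 or more, and all share the same 6 libraries and the same split into groups. Closest to NEAT1 were GPRC5A, UBE2L6, ABCG2, CHGB and VPS33A, with differences of 0.03 to 0.04. The MALAT1 pattern had no match as close: PTGS2, TMTC3, ELMOD2, ZCCHC10 and NRN1 lay 0.11 to 0.13 away. MALAT1 itself was 591st in the order of likeness to NEAT1 and PSPC1 508th, while SFPQ was 9686th.

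Of 35 tested genes for other paraspeckle proteins, 14 were lower, 5 were higher and 16 did not pass. This stands beside 28.8% lower and 28.7% higher over all tested genes. The median log2 fold change of the 35 was -0.04, against 0.01 for all tested genes. With a length trend removed 8 of them were higher. Several genes for hnRNP and RNA-binding proteins were among the lower ones. HNRNPA1, a splicing repressor, had a log2 fold change of -0.56 (SE 0.05), HNRNPH1 one of -0.40 (SE 0.05) and MATR3, a nuclear matrix protein that binds RNA, one of -0.56 (SE 0.07). The zinc finger gene ZC3H6, at under 2 TPM, was at -0.92 (SE 0.12). The transcriptional repressor BCL6 was higher at 1.59 (SE 0.11), with a mean of 5.02 TPM with HOTAIR-N siRNA and 1.78 TPM with control siRNA.

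Factors that set the 3' ends of NEAT1 and MALAT1 were examined next to the isoform values. Of 19 tested, 7 were lower, 2 were higher and 10 did not pass (median -0.07). The shares over all tested genes were 28.8% lower and 28.7% higher. NUDT21, which binds TGTA words like those printed above and promotes use of the short NEAT1 end, was lower at -0.53 (SE 0.07), with 76.8 TPM with HOTAIR-N siRNA and 115 TPM with control siRNA. Its partners CPSF6 and CPSF7 were at 0.00 (SE 0.06) and -0.01 (SE 0.05) and did not pass. HNRNPK, which hinders formation of that end, was lower at -0.17 (SE 0.05), and HNRNPM was lower at -0.36 (SE 0.05). Of 10 protein subunits of RNase P, which cuts the long end, 3 were lower, 1 was higher and 6 did not pass. RPP30 was lower at -0.69 (SE 0.07) and POP4 at -0.47 (SE 0.06), while POP5, named after its value was seen, was at 0.19 (SE 0.07). METTL16, a methyltransferase that binds the MALAT1 triple helix, was lower at -0.22 (SE 0.06), and METTL3, which deposits N6-methyladenosine, was higher at 0.27 (SE 0.08). Without HOTAIR-N siRNA replicate 1 none of the 19 was higher past the threshold.

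Nuclear speckle proteins share their compartment with MALAT1. Their transcripts were lower in 10 of 16 cases, higher in 1 and not past the threshold in 5 (median -0.17). Over all tested genes 28.8% were lower and 28.7% were higher. Over the alternatives 7 to 11 were lower. DYRK1A, a kinase of splicing factors, stood at -0.71 (SE 0.07), the scaffold SRRM2 at -0.47 (SE 0.05) and SON, the other scaffold, at -0.21 (SE 0.05). The splicing factors SRSF1 and SRSF3 were at -0.44 (SE 0.06) and -0.38 (SE 0.05), and RNPS1 at -0.25 (SE 0.05). The 1 that was higher was SF3B1, at 0.14 (SE 0.05), which was named after its value was seen. No speckle gene was higher past the threshold with a replicate block or without any 1 of the HOTAIR-N siRNA replicates.

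**Figure D5:**
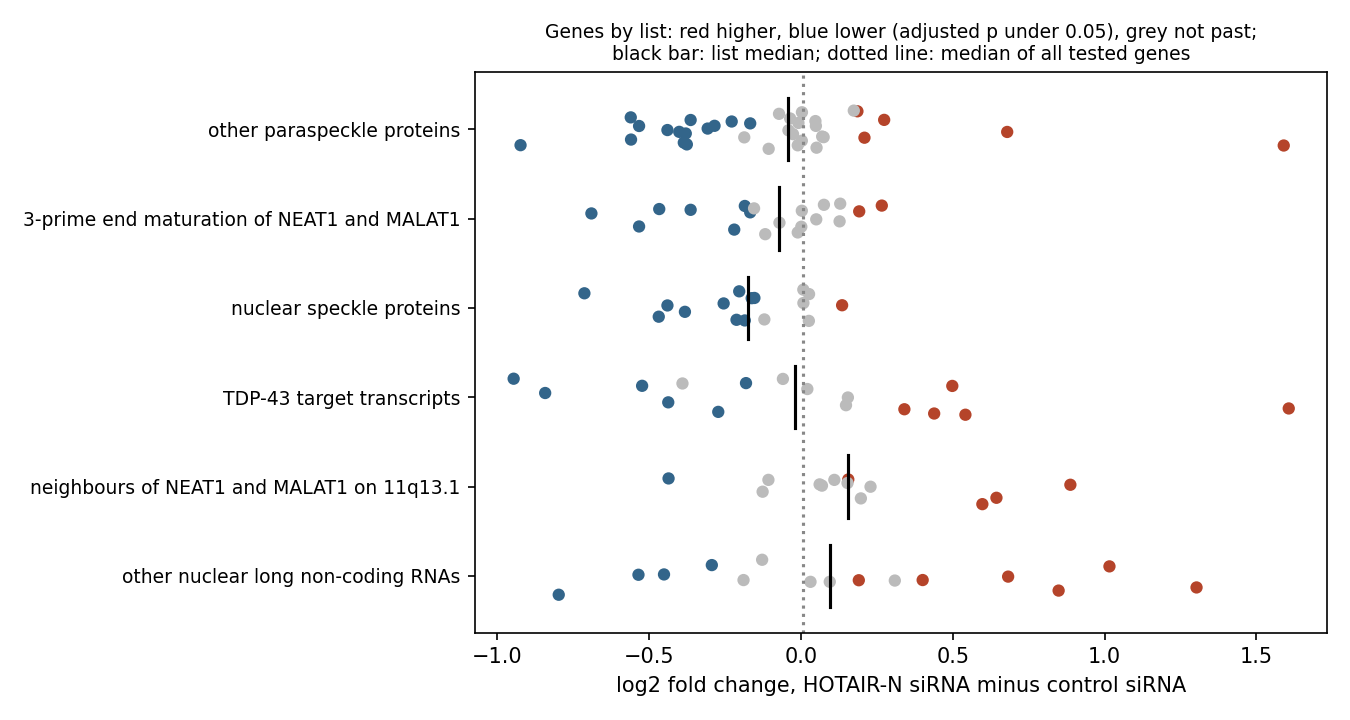
Log2 fold change, HOTAIR-N siRNA minus control siRNA, of the tested genes of 6 lists (red higher, blue lower, grey not past an adjusted p of 0.05), with each list's median as a black bar and the median of all tested genes as a dotted line. Nuclear speckle proteins have the lowest median (-0.17), and neighbours of NEAT1 and MALAT1 the highest (0.15).

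Transcripts that TDP-43 is known to regulate were spread over both directions. Of 16 tested, 5 were higher, 6 lower and 5 not past the threshold (median -0.02). Among all tested genes 28.7% were higher and 28.8% lower. SORT1, a sorting receptor, was at -0.95 (SE 0.07), the stress granule protein G3BP1 at -0.52 (SE 0.06) and GPSM2, which orients the spindle, at -0.44 (SE 0.06). UNC13B, a vesicle priming factor, was higher at 0.50 (SE 0.05) and the neurofilament gene NEFL at 0.54 (SE 0.06). POLDIP3, in which TDP-43 promotes inclusion of an exon, was lower at -0.84 (SE 0.06). Its isoform NM_032311 stood at 25.3, 27.2 and 25.04 TPM with HOTAIR-N siRNA, against 46.8, 43.9 and 44.5 TPM with control siRNA. NM_178136, which lacks that exon, had 44.5, 34.6 and 47.8 counts with HOTAIR-N siRNA, against 205, 337 and 102 with control siRNA (log2 fold change -2.28, SE 0.48, adjusted p = 0.0260, edgeR quasi-likelihood test), and missed the threshold in 7 of 11 alternatives. Its share of the counts of both isoforms was 2.95, 2.11 and 3.00% with HOTAIR-N siRNA and 6.79, 11.8 and 3.58% with control siRNA. The control values scatter over a wide range, and POLDIP3 isoform use did not pass (adjusted p = 1.00, diffSpliceDGE).

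The neighbourhood of NEAT1 and MALAT1 on chromosome 11 was looked at as a whole. Of 13 neighbours tested, 4 were higher, 1 was lower and 8 did not pass (median 0.15). Over all tested genes 28.7% were higher and 28.8% lower. SLC25A45, a carrier gene that lies next to NEAT1 in the RefSeq order, was higher at 0.89 (SE 0.12), and FRMD8, the gene after it, did not pass at 0.15 (SE 0.08). Beyond MALAT1, LTBP3, which binds latent TGF-beta, was higher at 0.60 (SE 0.09). On the other side CDC42EP2 was higher at 0.64 (SE 0.08) and the DNA polymerase subunit gene POLA2 lower at -0.44 (SE 0.06), while DPF2, nearer to NEAT1, did not pass at -0.13 (SE 0.06). Higher genes were thus interspersed with genes that did not pass.

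Other listed long non-coding RNAs, whose place in the cell was not examined, gave no single direction either. Of 15 tested, 6 were higher, 4 lower and 5 not past the threshold (median 0.10). Among all tested genes 28.7% were higher and 28.8% lower. The imprinted MEG3 was higher at 0.85 (SE 0.07), PVT1 at 0.68 (SE 0.07) and LINC-PINT at 0.40 (SE 0.08). OIP5-AS1 was lower at -0.45 (SE 0.07), TUG1 at -0.29 (SE 0.05) and FIRRE, at under 1 TPM, at -0.80 (SE 0.20).

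Finally, the transcripts of the 7 genes were searched for 4 words of 7 bases that an earlier scan of these same data had picked out. GACCAAT and its neighbour in the scan, ACCAATA, had gone with lower expression there. GAATATA had gone with higher expression, and TGAATAT overlaps it. The search read the sense strand of 1 GENCODE release 29 transcript per gene. A run of both of the last words reads TGAATATA. For RBM14 the transcript searched was 2828 nt long, against 5407 nt for the deposited NM_006328. For NONO it was NM_001145410, a minor isoform in these libraries. MALAT1 was searched in NR_002819, another minor isoform, at 0 to 1.07 TPM here. PSPC1 was searched in a transcript of 2407 nt, against 2525 nt for its isoform NM_001354909. In the transcripts searched, NEAT1, SFPQ and RBM14 held none of the 4 words, and GACCAAT was in none of the 7. Each match in the other genes is printed with up to 10 bases on either side and the word in capitals, so that it can be seen where it lies.
MALAT1, non-coding transcript, chr11:65499377-65499403, plus strand: ccgaattaatACCAATAgaagggcaat
NONO, coding sequence, chrX:71296889-71296915, plus strand: cctttgagtaTGAATATgccatgcgct
PSPC1, coding sequence, chr13:19705761-19705787, minus strand: atgatgggtaTGAATATgaacaacaga
PSPC1, 3' UTR, chr13:19702573-19702599, minus strand: atatagcttcTGAATATtcaggtattc
TARDBP, coding sequence, chr1:11013724-11013749, plus strand: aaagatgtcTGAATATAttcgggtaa
Coordinates are GRCh38. At least 1 of the 4 words was in 45.4% of the 14500 genes searched, GACCAAT in 13% and TGAATAT in 27.8%. A link between words and directions was not tested, because the words came from these same data and the 7 genes were chosen with their values known. SFPQ, lower by the widest margin, held no word in the transcript searched. MALAT1, which was higher, held a word that had gone with lower expression, and TARDBP, which was lower, held the only GAATATA. PSPC1, which was higher, and NONO, which did not pass, both held TGAATAT. A match is a description of the letters only.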

How the data were processed

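The data are 6 RNA-seq libraries of H23 cells, 3 with HOTAIR-N siRNA and 3 with control siRNA. Reads were processed with STAR 2.6.0c and RSEM 1.3.0 on hg19, per the submitters' processing notes. Neither the annotation release nor whether counting used strand is stated there. The deposited expected counts are, per the file headers, RSEM's estimates per gene or isoform, with shared reads divided between transcripts. TPM values were length-adjusted and scaled by the authors, library by library, and the deposited isoform percent is the share of a gene's transcripts.

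After rounding, expected counts were tested in R 4.3.3 with edgeR 4.0.16 (filterByExpr by group, TMM, robust quasi-likelihood test) over all genes or all isoforms, with Benjamini-Hochberg adjustment and a threshold of 0.05. CPM uses TMM-scaled totals. Libraries of 1 group all differed by more than sampling noise (chi-square per degree of freedom of 2.06 to 14.97). A positive log2 fold change means higher with HOTAIR-N siRNA, and its standard error (SE) was taken from the F statistic. Isoform use was tested with diffSpliceDGE. Alternatives were other scalings and filters, a length trend removed, a block by replicate number, leaving out each library, DESeq2 1.42.0 and limma-voom (limma 3.58.1). The steps were also run on simulated counts in which far fewer genes and isoforms changed than passed here. Their behaviour under so broad a shift was therefore not tested.

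The genes and lists were chosen with earlier results of these data known. Named are the 7 genes, their isoforms with at least 1 TPM in a library, HOTAIR, POLDIP3 isoforms with at least 1 TPM, up to 6 genes of each list with the smallest p, and the 5 genes nearest to NEAT1 and to MALAT1 in pattern. Some genes that this rule takes are left out of the text. Exceptions are marked in the text, apart from CPSF6, CPSF7, HNRNPK, FRMD8, TALAM1 and the marker genes, which were named for their role or place. Sequences came from GENCODE release 29 on GRCh38, another build than that of the deposited tables, and no coordinates were taken over.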

Additional observations from a re-analysis of the deposited data

How the results depend on the processing

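Over 16 alternatives the number of genes past the threshold ran between 7503 and 9234, and 4 or 5 of the 7 genes passed. Of 114 recomputed log2 fold changes of the 7 genes, 112 kept their direction and their side of the threshold. MALAT1 lost its call without control replicate 3, and RBM14 changed sign to 0.00169 with the length trend removed. Isoform counts depended more on the setting. The 6362 isoforms past the threshold became 2012 with the replicate number as a block and 3551 to 5647 with a library left out, and the 311 genes with isoform use past it became 141 with the block and 186 to 251 with a library left out. Same-numbered libraries did not deviate together (correlations of -0.12, 0.02 and -0.04), so the numbers were not taken as pairs; with the block 3988 genes were higher and 3996 lower.

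Of 219 recomputed isoform values 192 kept direction and call, 16 lost the call, 3 gained it and 8 changed sign. The sign changes were in isoforms that did not pass. NR_002819 of MALAT1 was at 1.61 with the block, 1.82 with limma-voom and -1.51 to 8.22 with a library left out. NM_001042414 of PSPC1 was at -0.37 with the block, -0.56 with limma-voom and -0.38 to 0.74 with a library left out. With a library left out, NM_006328 of RBM14 ran between -0.10 and 0.0065, and NM_007363 of NONO between -0.025 and 0.043. The lost calls were in NM_178136 of POLDIP3 and NR_044998 of PSPC1 and, each in 2 alternatives, NR_144568 of MALAT1 and NM_007375 of TARDBP. The cause was not tested. Isoform values carry the unstated error of dividing shared reads, and long NEAT1 rests on 114 to 227 counts per library.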

Other observations

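Transcripts for proteins of other nuclear bodies moved in both directions. Of 11 tested genes of Cajal and PML bodies, 4 were higher, 3 lower and 4 not past the threshold of edgeR's quasi-likelihood test. Their median log2 fold change was 0.02. Over all tested genes 28.7% were higher and 28.8% lower. WRAP53, which guides RNAs to Cajal bodies, was lower at -0.64 (SE 0.06) and COIL, their scaffold, at -0.33 (SE 0.06). SP110 was higher at 0.97 (SE 0.09), PML, the scaffold of PML bodies, at 0.32 (SE 0.07) and its partner DAXX at 0.39 (SE 0.05).

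Of 9 tested transcription factors that have been reported to act at NEAT1 or MALAT1, 3 were higher, 3 lower and 3 not past the threshold (median -0.03). The shares over all tested genes were 28.7% higher and 28.8% lower. EPAS1, which mediates the hypoxia response, was higher at 0.66 (SE 0.07), STAT3 at 0.47 (SE 0.05) and HSF1, the heat shock factor, at 0.29 (SE 0.08). YAP1 was lower at -0.67 (SE 0.07), BRCA1 at -0.38 (SE 0.07) and ATF2 at -0.30 (SE 0.07). Of 10 tested genes linked to retention in paraspeckles or to SFPQ, 3 were higher and 3 lower (median 0.12). The chemokine CXCL8 was higher at 1.48 (SE 0.08) and the RNA sensor IFIH1 at 1.18 (SE 0.14), and LIN28B, at about 1 TPM, at 1.18 (SE 0.14). The RNA editing gene ADARB1 was lower at -1.47 (SE 0.09), its relative ADARB2, under 1 TPM in every library, at -1.57 (SE 0.25), and CARM1 at -0.30 (SE 0.07).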
